A study of Mus musculus with 2 samples.

Results

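The 9 leukocyte integrin genes Itgam, Itgal, Itgax, Itgb2, Itga4, Itgb1, Itgb7, Itga2 and Itgae were followed through the cell classes of mouse spleen. They were taken by gene symbol, and all 9 are among the 32285 genes of the deposited tables. Splenocytes that had been frozen viably were sorted for CD45.2 and CD11b, and RNA of single cells was counted from its 3′ ends in 2 libraries, of which 1 stands for low-B12 and the other for high-B12 treatment. The title of the series sets the work in Tet2-deficient haematopoiesis and gut dysbiosis. The genotype, age and number of mice, the B12 dose and its route and duration are not stated for either library. With 1 library per group there is no replicate, so the treatment and the library cannot be told apart, no test between the groups was made, and every interval below is a 95% interval for counting error only. Amplified molecules were counted once each by unique molecular identifiers (UMIs).

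Integrins are adhesion receptors made of 1 α and 1 β chain, and the partner chain decides what is bound. On leukocytes the β2 chain (Itgb2, CD18) pairs with αL (Itgal) to form LFA-1, with αM (Itgam, CD11b) to form Mac-1, with αX (Itgax, CD11c) to form complement receptor 4, and with αD (Itgad). The α4 chain (Itga4) pairs with β1 (Itgb1) to form VLA-4, which binds VCAM-1 and fibronectin, or with β7 (Itgb7) to form the gut-homing receptor LPAM-1, which binds MAdCAM-1. The αE chain (Itgae) pairs with β7 and binds E-cadherin, and α2 (Itga2, CD49b) pairs with β1 as a collagen receptor and is a common marker of mouse NK cells. Itgam encodes the protein that the sort selected, so every class below had passed a CD11b gate and none is a sort-negative control.

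The α chain genes of the β2 family lie together on chromosome 7, and 2 of them are near neighbours with unlike patterns across the cell classes, which is why their promoters are shown. In GRCm38, Itgal spans chr7:127296260-127335138, Itgam chr7:128062640-128118491 and Itgax chr7:128129547-128150657, all on the plus strand. Itgax begins 11.1 kb after the end of Itgam, and Itgad begins 3.7 kb after the end of Itgax. Promoter windows of 300 bases (250 before the start site and 50 from it, RefSeq, GRCm38.p6) were found for 6 of the 9 genes, and not for Itgal, Itgb2 and Itgae. The windows were searched on both strands for GAGGAA, the core bound by PU.1, for TGTGGT, the core bound by RUNX factors, for GGGCGG, the GC box, and for TATAAA, and matches are in capitals. Itga4 is added as an α chain outside that family, with another order of classes.
Itgam promoter, chr7:128062390-128062689, plus strand: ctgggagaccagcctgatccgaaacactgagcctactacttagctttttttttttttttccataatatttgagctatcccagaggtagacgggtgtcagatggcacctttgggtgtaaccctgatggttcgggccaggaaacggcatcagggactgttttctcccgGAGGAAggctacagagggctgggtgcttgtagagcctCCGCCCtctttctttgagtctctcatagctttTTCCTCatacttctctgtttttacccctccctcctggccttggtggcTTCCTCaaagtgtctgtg
Itgax promoter, chr7:128129300-128129599, plus strand: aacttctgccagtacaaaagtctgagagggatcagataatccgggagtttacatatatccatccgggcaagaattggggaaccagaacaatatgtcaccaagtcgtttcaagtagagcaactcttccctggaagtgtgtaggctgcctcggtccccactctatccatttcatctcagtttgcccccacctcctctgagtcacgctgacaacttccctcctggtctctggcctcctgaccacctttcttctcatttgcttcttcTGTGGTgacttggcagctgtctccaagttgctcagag
Itga4 promoter, chr2:79255176-79255475, plus strand: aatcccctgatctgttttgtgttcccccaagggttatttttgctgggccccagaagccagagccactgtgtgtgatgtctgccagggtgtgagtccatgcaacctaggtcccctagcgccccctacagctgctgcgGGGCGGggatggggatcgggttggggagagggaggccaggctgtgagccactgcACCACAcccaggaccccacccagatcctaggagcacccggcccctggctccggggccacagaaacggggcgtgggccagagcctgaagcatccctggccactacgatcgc
The Itgam window holds GAGGAA 3 times, at 84 bases before the start site and, as TTCCTC, at 15 before and 32 after it, and 1 GC box. The Itgax window holds 1 TGTGGT, 13 bases after its start, and no GAGGAA. The Itga4 window holds TGTGGT as ACCACA and 1 GC box. Of the windows not shown, that of Itgb1 holds GAGGAA 9 bases before its start site and 1 GC box. That of Itgb7 holds GAGGAA as TTCCTC, 2 bases after its start site, and that of Itga2 holds 1 GC box. GAGGAA was thus not particular to Itgam among the 6 windows. No matches overlapped, and none of the 6 windows holds TATAAA. Over all 32851 promoter windows of that table, GAGGAA occurs in 28.3%, TGTGGT in 16.8%, GGGCGG in 35.7% and TATAAA in 13.6%, so each match is a description of these letters and not of binding.

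After filtering, the low-B12 library held 6510 cells with a median of 5695 UMIs, and the high-B12 library 6748 cells with a median of 4327 UMIs, and 4 cell barcodes occurred in both. Cells were assigned by the first of these rules they met: neutrophils (942 and 2672 cells, low-B12 library first here and throughout) by S100a8 and S100a9, B cells (1853 and 673) by Cd79a and Cd79b, NK cells (946 and 844) by Ncr1 and Klrb1c, conventional dendritic cells (cDC, 479 and 403) by Cd209a, Clec10a and Flt3, and monocytes by Csf1r. Monocytes were split into those with at least 3 UMIs of the classical-type genes Ly6c2, Ccr2, F13a1 and Fn1 (set-high, 814 and 654 cells) and the others (set-low, 450 and 188). Against other cells, all 8 neutrophil, all 8 B and all 8 NK cell markers were higher in their class in both libraries, as were 7 of 8 cDC markers, 4 of 7 classical monocyte markers in set-high and 8 of 8 nonclassical markers in set-low monocytes. Set-low monocytes of the high-B12 library also had 2 of 7 macrophage markers higher, with a summed level of 863 against 279 counts per 1000000 UMIs (CPM) in the low-B12 library. Barcodes that met several rules were 515 and 385, Scrublet marked 475 (7.30%) and 329 (4.88%) as doublets, and both kinds were kept. Since UMIs were counted at the 3′ end with no correction for capture between genes, levels are compared for the same gene across classes.

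Itgam was highest in neutrophils, at 540 CPM (interval 521 to 558) and 522 CPM (511 to 533). Set-low monocytes (335 and 234 CPM), set-high monocytes (278 and 258 CPM) and NK cells (261 and 226 CPM) followed, and their order differed between the libraries. B cells (136 and 111 CPM) and cDC (136 and 120 CPM) were lowest, with intervals that overlapped each other. Itgam UMIs were seen in 81.5% and 82.0% of neutrophils and in 41.9% and 38.2% of B cells, or in 24.6% and 24.0% of neutrophils and 6.15% and 4.01% of B cells once every cell was thinned to 500 UMIs. T cells, picked from the unassigned cells by Cd3d, Cd3e and Cd3g, had an Itgam UMI in 13.2% of 68 and 23.3% of 43 cells, at median depths of 4772 and 4142 UMIs against 6048 and 6443 in B cells. Droplets with 10 to 100 UMIs, taken as empty, held Itgam at 124 and 179 CPM. The S100a8 and S100a9 level of B cells was 6.24% and 3.79% of that in these droplets, while their Itgam level was of the same order as in the droplets. With free RNA subtracted in that proportion, the Itgam level of B cells was 136 and 108 CPM.

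Itgal, the α chain of LFA-1, had a different leader. Set-low monocytes reached 1025 CPM (985 to 1066) and 658 CPM (609 to 711), against 351 and 252 CPM in set-high monocytes, 399 and 295 CPM in NK cells and 324 and 241 CPM in neutrophils. B cells (123 and 87.7 CPM) and cDC (123 and 86.5 CPM) were again lowest and alike. Itgax, the CD11c chain often used to gate dendritic cells, was as high in NK cells (169 and 148 CPM) and set-low monocytes (147 and 177 CPM) as in cDC (163 and 146 CPM), and the order of these 3 differed between the libraries. B cells held Itgax at 75.0 and 38.5 CPM, neutrophils at 37.0 and 21.4 CPM and set-high monocytes at 22.0 and 14.1 CPM. The common β2 chain Itgb2 was at 392 and 272 CPM in set-low monocytes, 317 and 296 CPM in neutrophils and 274 and 258 CPM in NK cells, and at 151 and 150 CPM in set-high monocytes. In cDC it was at 139 and 128 CPM and in B cells at 115 and 83.5 CPM. Every class thus held Itgb2 together with 3 of its α partners, in unlike mixtures.

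**Figure D1:**
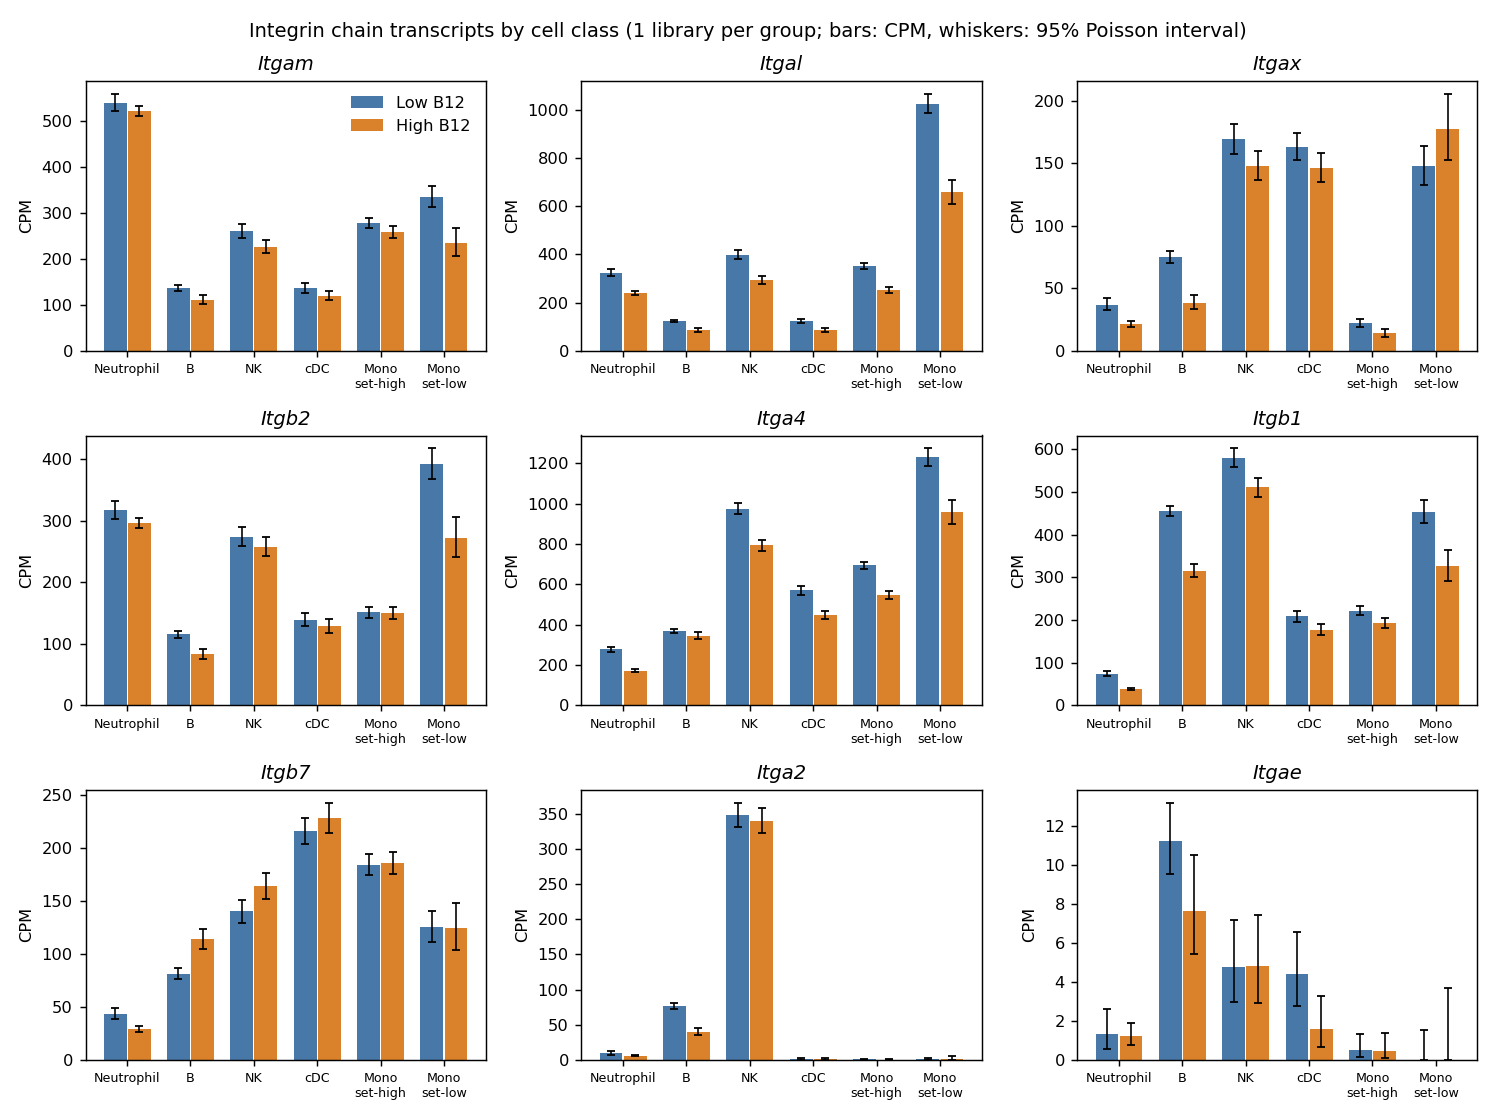
CPM of the 9 integrin genes in 6 cell classes, with the low-B12 library in blue and the high-B12 library in orange; whiskers are 95% Poisson intervals. Mono set-high and set-low are monocytes with and without the Ly6c2, Ccr2, F13a1 and Fn1 set. Itgam peaks in neutrophils (540 and 522 CPM), Itgal in set-low monocytes (1025 and 658 CPM), Itga2 in NK cells (349 and 340 CPM), and Itgae is at 11.3 CPM or less in each of the 6 classes.

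The mixture was described as each chain's share of the UMIs of Itgam, Itgal, Itgax and Itgad. Capture was not corrected between genes, so a leading chain is the one with most UMIs and was not shown to have most RNA. In neutrophils Itgam made up 59.9% (58.6 to 61.2) and 66.4% (65.6 to 67.2) and Itgax 4.10% and 2.73%. In set-low monocytes Itgal made up 67.5% and 60.8%. In cDC Itgax was the leading chain, with 38.5% (36.5 to 40.6) and 40.8% (38.3 to 43.2), against 3.39% and 2.68% in set-high monocytes. B cells divided these UMIs among Itgam (38.6% and 43.2%), Itgal (35.1% and 34.2%) and Itgax (21.3% and 15.0%), and had the largest Itgad share of the 6 classes, 4.96% and 7.55%. NK cells led with Itgal, at 47.0% and 43.1%. The share of Itgal was lower in the high-B12 library in each of the 6 classes, although in B cells the 2 intervals (33.7 to 36.5 and 31.6 to 36.9) overlapped. Subsets described below could have another leading chain than their class. In cDC with Cd209a or Clec10a, Itgam held 39.3% and 37.2% against 33.0% and 36.9% for Itgax, with overlapping intervals in the high-B12 library. In granule-low neutrophils Itgal held 49.1% and 45.1% against 44.9% and 50.2% for Itgam.

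**Figure D2:**
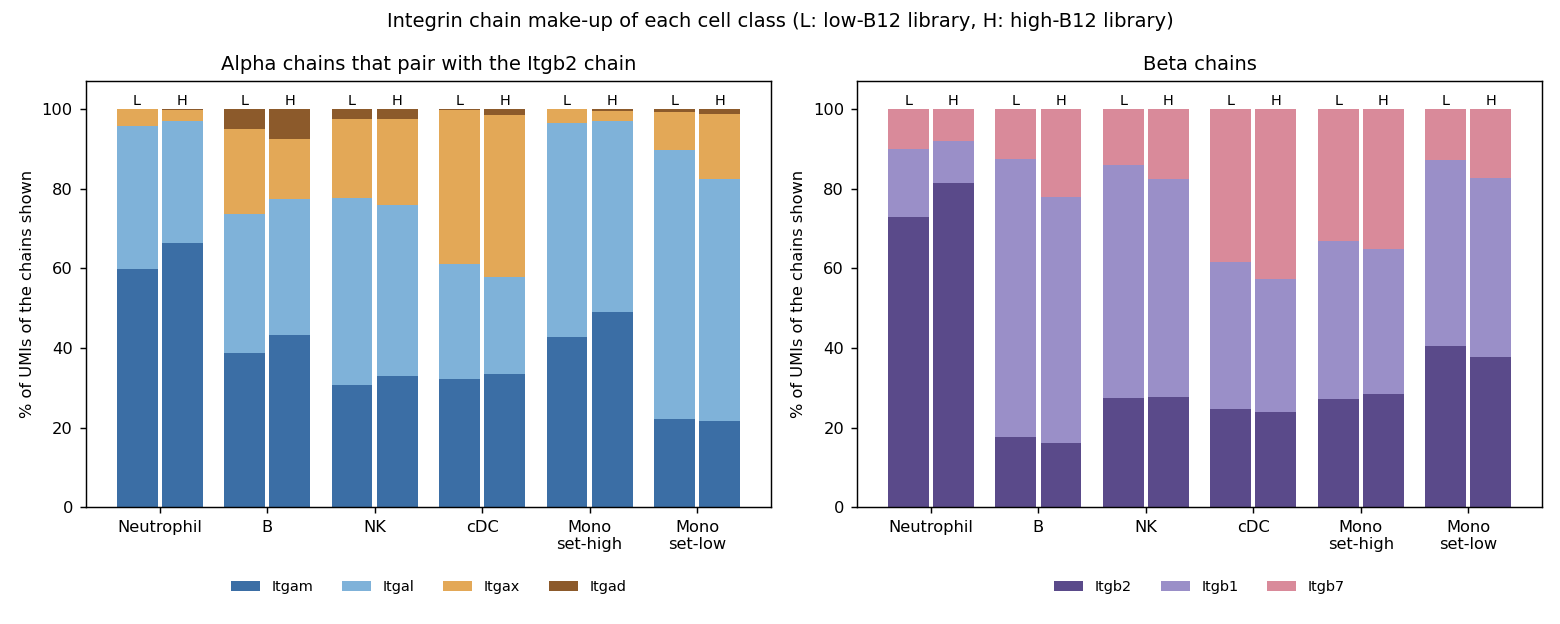
Percent of UMIs of the 4 α chains that pair with Itgb2 (left) and of 3 β chains (right) in each cell class; each pair of bars is the low-B12 (L) and the high-B12 (H) library. Neutrophils hold the largest Itgam and Itgb2 shares (59.9% and 66.4%; 73.0% and 81.5%), cDC the largest Itgax and Itgb7 shares (38.5% and 40.8%; 38.3% and 42.7%).

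Itga4 had the same class order in both libraries, from set-low monocytes (1230 CPM, 1186 to 1275, and 957 CPM, 898 to 1020) through NK cells (975 and 793 CPM), set-high monocytes (694 and 547 CPM), cDC (570 and 449 CPM) and B cells (370 and 345 CPM) to neutrophils (278 and 172 CPM). Its partner Itgb1 was highest in NK cells (580 and 511 CPM), with B cells (455 and 315 CPM) and set-low monocytes (453 and 326 CPM) next and not apart from each other. Set-high monocytes (222 and 193 CPM) and cDC (208 and 177 CPM) were lower, and neutrophils lowest, at 74.1 and 38.2 CPM, or at 27.2 and 22.2 CPM with barcodes that met several class rules left out. The other partner, Itgb7, followed another order. It was at 216 and 228 CPM in cDC, 184 and 186 CPM in set-high monocytes, 140 and 164 CPM in NK cells and 125 and 125 CPM in set-low monocytes. B cells held 81.4 and 114 CPM and neutrophils 43.4 and 28.9 CPM. Itgb7 thus was higher in set-high than in set-low monocytes, opposite to Itgb1 and Itga4.

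The β chain mixture, again as shares of UMIs with no correction for capture between genes, differed between the classes too. Itgb2 made up 73.0% and 81.5% of the UMIs of Itgb1, Itgb2 and Itgb7 in neutrophils, against 17.7% and 16.3% in B cells, where Itgb1 made up 69.8% and 61.5%. In cDC Itgb7 held 38.3% and 42.7%. Of the UMIs of the 2 β partners of α4, Itgb7 made up 50.9% and 56.3% in cDC, 45.4% and 49.0% in set-high monocytes, 36.9% and 43.1% in neutrophils, 21.6% and 27.7% in set-low monocytes, 19.5% and 24.3% in NK cells and 15.2% (14.35 to 16.02) and 26.6% (24.7 to 28.5) in B cells. The share was higher in the high-B12 library in each class, but not in each subset described below. In granule-high neutrophils it was 26.1% (22.2 to 30.4) and 22.2% (18.5 to 26.3), in granule-low ones 56.5% and 57.8%, and in cDC with Cd209a or Clec10a 56.2% and 54.5%, with overlapping intervals in all 3.

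Among the 6 classes, Itga2 was found mainly in NK and B cells. NK cells held 349 CPM (332 to 366) and 340 CPM (323 to 358), B cells 76.7 CPM (72.1 to 81.5) and 39.9 CPM (34.6 to 45.9), and neutrophils 9.74 and 5.99 CPM, or 1.19 and 1.18 CPM with barcodes that met several class rules left out. In cDC 4 UMIs were counted in each library, in set-high monocytes 3 and 1, and in set-low monocytes 2 and 1. An Itga2 UMI was seen in 72.7% and 66.0% of NK cells and in 27.4% and 13.4% of B cells, against 0.369% and 0.153% of set-high monocytes, which had median depths of 9069 and 9666 UMIs. After thinning, the shares were 17.5% and 16.6% of NK and 4.10% and 1.49% of B cells.

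The Itga2 level of B cells was 22.0% and 11.7% of that of NK cells, while the 8 NK marker genes, summed, were at 1.59% and 1.46% of their NK level, with single genes between 1.38% and 3.81% and between 1.02% and 3.50%. NK transcripts nevertheless moved with it inside the B class. B cells with an Itga2 UMI (508 and 90 cells) held Gzma at 262 and 605 CPM, against 38.4 and 55.6 CPM in the others, and Ncr1 at 27.8 and 60.7 CPM against 2.27 and 4.62 CPM. Scrublet had marked 16.1% and 12.2% of the cells with an Itga2 UMI, against 10.7% and 9.78% of the others. Several class rules were met by 13.2% and 7.78% of them, against 7.51% and 5.83% of the others. Their median depths were 6096 and 6289 UMIs, against 6038 and 6509 in the others. The part of NK transcripts in these cells in the B cell level was not tested.

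Itgae was scarce throughout. It was at 11.3 CPM (9.55 to 13.2) and 7.66 CPM (5.42 to 10.5) in B cells, 4.75 and 4.81 CPM in NK cells, and 1.32 and 1.25 CPM in neutrophils. In cDC it was at 4.39 CPM from 23 UMIs in 10 cells and 1.60 CPM from 7 UMIs in 7 cells. No UMI was counted in set-low monocytes, which a count of 0 allows to be up to 1.24 and 2.99 CPM. The T cells were at 33.1 and 26.5 CPM, from 14 and 6 UMIs.

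Within neutrophils the sort gene hardly differed between subsets, while other chains did, as did many genes. Cells with at least 1% of UMIs from the granule genes Camp, Ngp, Ltf and Lcn2 (granule-high, 268 and 769 cells) are the less mature kind by these transcripts, and were compared with the remaining neutrophils (674 and 1903 cells). Itgam was at 533 and 531 CPM in granule-high and 551 and 508 CPM in granule-low neutrophils, 1.03-fold lower in the first library and 1.05-fold higher in the second. Itgal was at 168 and 98.8 CPM in granule-high against 602 and 456 CPM in granule-low cells, 3.59-fold and 4.62-fold lower. Itga4 was 3.35-fold and 5.97-fold lower, Itgax 4.11-fold and 6.01-fold lower, Itgb7 2.14-fold and 5.61-fold lower and Itgb2 1.35-fold and 1.35-fold lower. Itgb1 was at 87.2 CPM in granule-high against 50.7 CPM in granule-low cells of the low-B12 library, and at 35.8 against 41.9 CPM in the other library. At least 1.5-fold lower in both libraries were 5 of 8 measured chains, Itga2 among them from 27 to 63 UMIs, where 34.2% and 39.7% of all measured genes were lower and 23.4% and 22.6% higher by that much. Itga2 turned higher in granule-high cells of the low-B12 library with doublets left out. Over all genes the granule-high level was 0.893 and 0.809 of the granule-low one by the median, and S100a8 and S100a9 alone took 29.0% and 35.1% of granule-high UMIs against 11.6% and 15.1%. Median depths were 11992.5 and 11791 UMIs in granule-high against 2706 and 3075 in granule-low cells, and the part of depth was not tested.

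Set-low monocytes had median depths of 4992 and 4337.5 UMIs against 9069 and 9666 in set-high cells, and the part of depth was not tested. Between the monocyte sets, Itgax was 6.69-fold (5.56 to 8.07) and 12.6-fold (9.71 to 16.4) higher in set-low than in set-high cells. Itgal was 2.92-fold and 2.61-fold, Itgb2 2.59-fold and 1.81-fold, Itgb1 2.04-fold and 1.69-fold and Itga4 1.77-fold and 1.75-fold higher. Itgb7 was 1.47-fold and 1.49-fold lower in set-low cells, and Itgam was near equal, 1.21-fold higher in 1 library and 1.10-fold lower in the other. The median gene was 1.08-fold and 1.10-fold higher in set-low cells. Of the 7 chains with UMIs enough to compare, these 5 were at least 1.5-fold higher in set-low cells of both libraries and 0 at least 1.5-fold lower, where 21.2% and 22.8% of all measured genes were higher and 13.5% and 13.7% lower by that much.

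In NK cells Cd27 and Klrg1 mark earlier and later stages. Klrg1-only cells (160 and 122) against Cd27-only cells (236 and 217) held 2.02-fold (1.68 to 2.41) and 2.20-fold (1.82 to 2.66) more Itgam, at 372 and 376 CPM against 185 and 171 CPM. Itgb2 was 1.61-fold and 1.68-fold, Itgb7 1.52-fold and 1.53-fold and Itga4 1.44-fold and 1.57-fold higher in Klrg1-only cells, and Itgax was 1.38-fold and 1.53-fold lower. Itgal differed little, 1.11-fold and 1.08-fold higher with intervals that include 1. For Itga2 the value was 1.03-fold (0.874 to 1.21) in the first library and 1.62-fold (1.37 to 1.92) in the second, and that difference was not tested. After thinning to 500 UMIs, the Itgax and Itgb7 differences of the high-B12 library changed direction.

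In cDC, cells with Xcr1 or Clec9a, genes of the cross-presenting cDC1 kind (117 and 106 cells), held less Itgam than cells with Cd209a or Clec10a (240 and 236 cells): 82.2 and 84.1 CPM against 182 and 143 CPM, 2.22-fold and 1.70-fold lower. Itga4 was 1.31-fold and 1.23-fold lower. Itgax, Itgal, Itgb2 and Itgb1 had intervals that include 1 in both libraries. In B cells, those with at least 2 UMIs of Sox5, Cacna1e, Bhlhe41 and Zbtb32, genes seen in B-1 or other innate-like B cells (1297 and 445 cells), were set against those with Fcer2a or Cr2, follicular and marginal zone genes (91 and 32 cells). Values of the 32 cells rest on few UMIs. In the low-B12 library Itgb1 was at 489 against 162 CPM, 3.01-fold (2.50 to 3.65) higher, and Itga2 at 69.8 against 19.4 CPM, 3.59-fold (2.12 to 6.60) higher. Itgal was at 120 against 179 CPM, lower in the Sox5 set. In the high-B12 library the 32 cells held 18 Itgb1, 20 Itgal and 7 Itga2 UMIs of 194579 in all, which for Itga2 is 35.98 CPM, against 25.6 CPM in the Sox5 set. The direction of the Itga2 difference was thus the opposite there, with a ratio of 0.711 (0.332 to 1.82) whose interval includes 1. B cells with neither gene set held more Itga2 than the Sox5 set in both libraries, at 118 and 86.9 CPM. Of the Fcer2a and Cr2 cells, 26.4% in the low-B12 library were marked as doublets, against 11.8% of the Sox5 set.

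**Figure D3:**
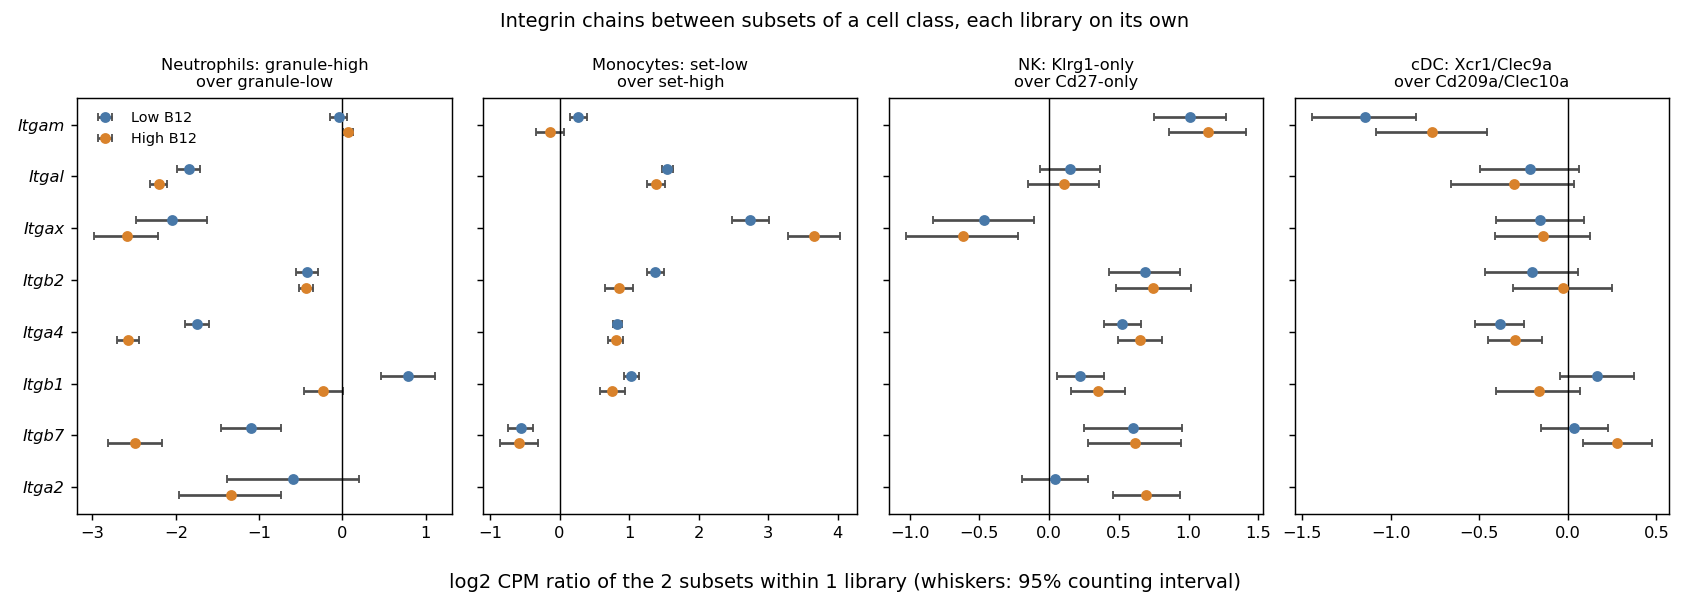
log2 CPM ratio of each integrin gene between 2 subsets of a class within 1 library, low-B12 in blue and high-B12 in orange; whiskers are 95% counting intervals, and each panel has its own scale. Itgam is near 0 between neutrophil subsets while Itgal, Itgax, Itga4 and Itgb7 fall well below it in granule-high cells, and Itgax is the chain that differs most between the monocyte sets (6.69-fold and 12.6-fold).

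Between the libraries, integrin transcripts were mostly lower in the high-B12 library within a class. Of 46 pairs of class and gene with at least 50 UMIs, 41 were lower, 9 were at least 1.5-fold lower and 0 at least 1.5-fold higher. Of all measured genes, 76.9% were lower in neutrophils and 56.3% to 64.7% in the other classes. With the median gene of each class as the scale, 3 were at least 1.5-fold lower and 1, Itgb7 in B cells, higher. By class, at least 1.5-fold lower were 5 of 8 genes in neutrophils, where 16% of 9896 measured genes were, 2 of 9 in B cells (8.83% of all genes), 0 of 8 in NK cells (7.5%), 0 of 7 in cDC (5.97%), 1 of 7 in set-high (3.95%) and 1 of 7 in set-low monocytes (9.24%). The share of genes at least 1.5-fold higher was 1.95%, 2.91%, 2.2%, 2.22%, 2.62% and 5.8% in the same order, with 0 integrins in each class. The median log2 ratio over the 46 pairs was -0.32, while that of all measured genes lay between -0.22 in neutrophils and -0.05 in set-low monocytes. Long genes were lower too. The 20% of genes with the longest span had a class median between -0.30 and -0.20, and the 20% with the shortest one between -0.13 and 0.12. Of the 46 pairs, 32 were below the median of genes of like span in their class, and the part of span in the rest was not tested.

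Itgal was lower in 6 of 6 classes, by 1.34-fold to 1.56-fold, with every interval below 1. The ratio of the high-B12 to the low-B12 library was 0.744 (0.704 to 0.785) in neutrophils, 0.711 in B cells, 0.740 in NK cells, 0.705 in cDC, 0.719 in set-high monocytes and 0.642 (0.589 to 0.700) in set-low monocytes. In the cells that met no class rule the Itgal ratio was 0.995 (0.927 to 1.07). Within B cells it was 0.939 (0.760 to 1.15) in those with neither gene set, against 0.656 (0.574 to 0.747) in the Sox5 set. Itga4 and Itgb1 were also lower in 6 of 6 classes with every interval below 1. For Itga4 the ratio ran from 0.620 in neutrophils to 0.932 in B cells, and for Itgb1 from 0.516 in neutrophils to 0.881 in NK cells. With doublets or barcodes of several rules left out, the Itga4 ratio in B cells was near 1, with log2 values of -0.01 and 0.02, and with the median gene as the scale it was 0.01. After thinning, Itgb1 had log2 values of 0.07 in NK cells and 0.08 in set-high monocytes in place of -0.18 and -0.20.

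Itgam and Itgb2 differed little in neutrophils. There the Itgam ratio was 0.967 (0.929 to 1.01) and the Itgb2 ratio 0.933 (0.885 to 0.984), above the median ratio of 0.861 over all genes. Scaled by that median, both were higher in the high-B12 library, with log2 values of 0.17 and 0.12, and Itgam was at 0.04 with S100a8 and S100a9 left out of the total. Set-low monocytes had the lowest Itgam and Itgb2 ratios, 0.698 (0.601 to 0.809) and 0.694 (0.604 to 0.795), from 235 and 273 UMIs in the high-B12 library. That is the class whose macrophage markers also differed between the libraries. Its Itgax ratio was 1.20 (0.999 to 1.44), or -0.14 on the log2 scale after thinning, against 0.579 in neutrophils, 0.514 in B cells and 0.639 in set-high monocytes.

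Over all cells as 1 pool, the direction of the sort gene was the opposite. Itgam was at 250 and 330 CPM, 1.32-fold (1.29 to 1.36) higher in the high-B12 library, and Itgb2 at 191 and 218 CPM, 1.14-fold higher, although neither was higher in any of the 6 classes on the same scale. The cells that met no class rule (1026 and 1314), which belong to the pool, held Itgam at 228 and 285 CPM, 1.25-fold (1.15 to 1.35) higher in the high-B12 library, and Itgb2 at 185 and 206 CPM, 1.11-fold (1.02 to 1.22) higher. Neutrophils, the class with most Itgam, made up 14.5% and 39.6% of cells. Itgb1, low in neutrophils, was at 321 and 175 CPM in the pool, 1.84-fold lower.

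**Figure D4:**
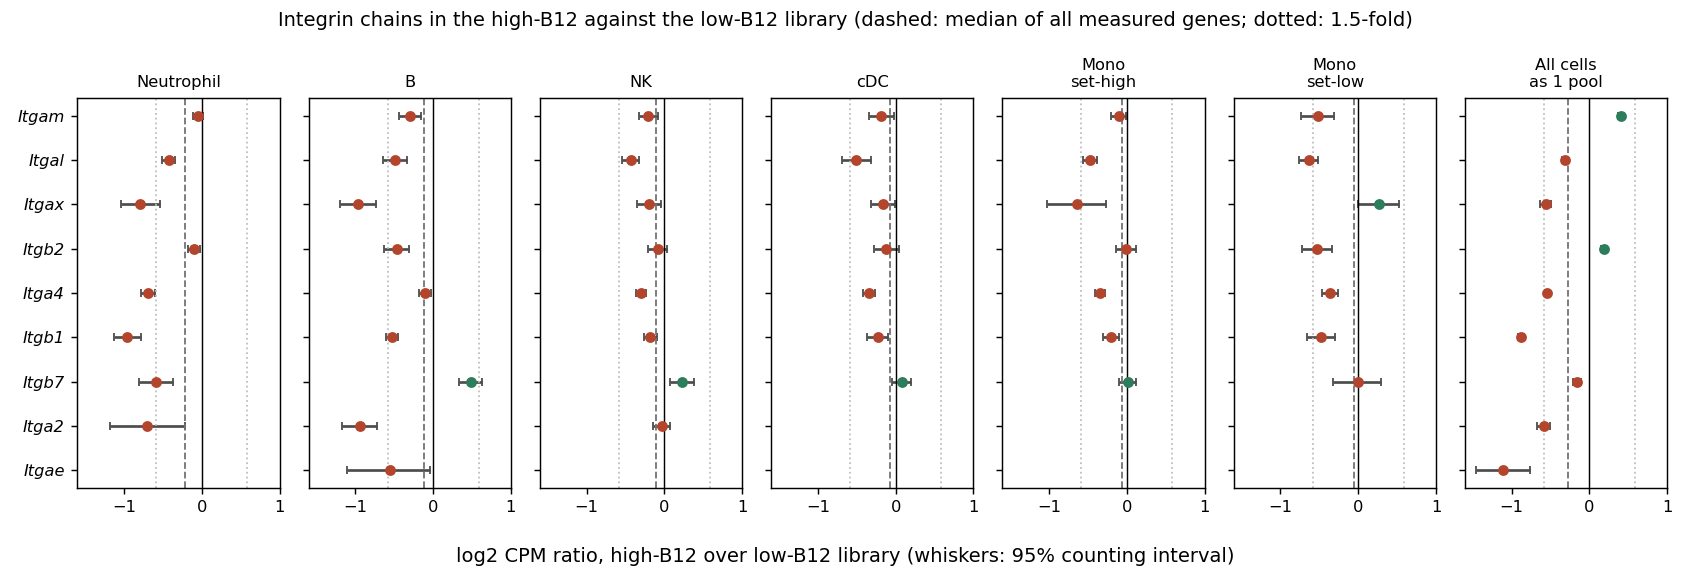
log2 CPM ratio of the high-B12 over the low-B12 library for each integrin gene with at least 50 UMIs, by cell class and over all cells as 1 pool; brown points are below and green points above 0, whiskers are 95% counting intervals, dashed lines the median of all measured genes and dotted lines 1.5-fold. In the 6 classes 41 of 46 points lie below 0; of the 7 panels drawn, Itgam and Itgb2 lie above 0 in that of the pool.

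The larger differences in neutrophils lay in the granule-high cells, where the level of B cell transcripts differed between the libraries too. There the high-B12 library held Itga4 at 58.0 against 151 CPM (2.60-fold lower), Itgb1 at 35.8 against 87.2 CPM (2.44-fold), Itgax at 7.18 against 17.5 CPM (2.44-fold) and Itgb7 at 10.2 against 30.9 CPM (3.02-fold). In granule-low cells the same genes were 1.46-fold, 1.21-fold, 1.67-fold and 1.15-fold lower. The 8 B cell markers summed to 943 CPM in granule-high cells of the low-B12 library and to 141 CPM in those of the high-B12 library, that is 4.83% and 0.641% of their B cell level. Itga4, Itgb1, Itgax and Itgb7 were there at 40.7%, 19.2%, 23.3% and 37.9% of their B cell levels in the low-B12 library. In the high-B12 library they were at 16.8%, 11.4%, 18.6% and 8.98%. Scrublet marked 14.9% and 10.8% of the granule-high cells. With barcodes that met several class rules left out, the log2 difference in granule-high cells shrank from -1.38 to -0.65 for Itga4, from -1.28 to -0.37 for Itgb1, from -1.28 to -0.32 for Itgax and from -1.59 to -0.71 for Itgb7. Over all neutrophils Itgb1 went from -0.96 to -0.29 and Itga2 from -0.70 to -0.02, while Itgal was at -0.43 with and without them and Itga4 went from -0.69 to -0.63. The barcodes left out could meet the rule of any other class, and the part of B cell transcripts in these differences was not tested.

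In B cells Itgax (75.0 and 38.5 CPM, ratio 0.514, 0.438 to 0.600) and Itga2 (76.7 and 39.9 CPM, ratio 0.521, 0.445 to 0.607) were the 2 genes past 1.5-fold. Both differences were larger within the Sox5 set, with ratios of 0.406 and 0.367, than in B cells with neither gene set, 0.742 and 0.739. Erythroid markers summed to 236 and 63.9 CPM in B cells, and 10 cells held 94.9% and 95.9% of their haemoglobin UMIs. Itgb1 in B cells was at 455 and 315 CPM (ratio 0.693, 0.655 to 0.733), and the ratio was alike in the Sox5 set (0.694) and in cells with neither set (0.679).

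Itgb7 was the exception among the 9 genes. It was at 81.4 CPM (76.6 to 86.3) and 114 CPM (105 to 124) in B cells, 1.40-fold (1.26 to 1.55) higher in the high-B12 library, and 1.17-fold (1.05 to 1.30) higher in NK cells. Within B cells it was 1.44-fold (1.29 to 1.62) higher in the Sox5 set. In cDC, set-high and set-low monocytes the ratios were 1.06, 1.01 and 0.995 with intervals that include 1, and in neutrophils, at 43.4 and 28.9 CPM, the ratio was 0.666 (0.572 to 0.776). With barcodes of several rules left out, the B cell difference was 0.60 on the log2 scale against 0.49 with them. Both partners of α4 thus moved in opposite directions in B cells, Itgb1 lower and Itgb7 higher in the high-B12 library.

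Genes that work with integrins inside the cell were mostly within 1.5-fold. Of 20 genes for inside-out activation and tail binding, such as talin (Tln1) and kindlin-3 (Fermt3), which switch integrins to the binding state, 0 of 20 in neutrophils, 0 of 20 in NK cells, 0 of 19 in cDC and 0 of 19 in set-high monocytes were past 1.5-fold in either direction. Of all measured genes, 16%, 7.5%, 5.97% and 3.95% were at least 1.5-fold lower in these classes, in that order, and 1.95% to 2.62% higher. In B cells 3 of 20 and in set-low monocytes 2 of 19 were at least 1.5-fold lower, where 8.83% and 9.24% of all measured genes were. In set-low monocytes the focal adhesion gene Pxn (145 and 86.7 CPM) and Rassf5 (189 and 125 CPM), the Rap1 effector RAPL, were among them. The list's median log2 ratio was between -0.18 and -0.15 in each class, against -0.22 to -0.05 for all measured genes. Of 8 measured genes of outside-in signalling, such as Syk and Lyn, 1 was at least 1.5-fold lower in NK cells. In each other class 0 of 8 were past 1.5-fold in either direction. Of 5 genes of selectin-side adhesion, only Spn (CD43) was past 1.5-fold, and it was lower in neutrophils, B cells, cDC and set-low monocytes, where it was at 384 and 230 CPM. Of 11 ligand genes, 5 to 7 were measured in a class. At least 1.5-fold lower were 3 of 7 in neutrophils, 3 of 6 in B cells and 2 of 6 in NK cells. In cDC 1 of 7, in set-high monocytes 0 of 6 and in set-low ones 1 of 5 were lower by that much. Higher by that much were 1 of 6 in B cells, 1 of 6 in NK cells and 2 of 5 in set-low monocytes. Of all measured genes 2.91%, 2.2% and 5.8% were higher there. Vcam1, the counter-receptor of VLA-4, was at 10.3 and 98.6 CPM in set-low monocytes, from 25 and 99 UMIs. Vcam1 is also 1 of the macrophage markers counted above. Icam1, a ligand of LFA-1 and Mac-1, was at 65.3 and 38.5 CPM in B cells.

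Of 17 other integrin chains, few had UMIs enough to compare: 6 could be measured in neutrophils, 8 in B cells and 5 in each other class. At least 1.5-fold lower in the high-B12 library were 3 of 6 in neutrophils (16% of all measured genes), 3 of 8 in B cells (8.83%) and 1 of 5 in cDC (5.97%). In cDC 1 of 5 was at least 1.5-fold higher (2.22%). In NK cells and both monocyte sets 0 of 5 were past 1.5-fold in either direction. Itgav and Itgb5, which pair as a vitronectin receptor, were highest in set-low monocytes, at 268 and 220 CPM and at 119 and 108 CPM. Itgad was at 17.4 and 19.4 CPM in B cells and 20.9 and 16.8 CPM in NK cells, against 1.16 and 1.90 CPM in neutrophils.

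Across the 12 points of 6 classes in 2 libraries, the integrins fell into different company. Itgb2 varied with Itgal (r = 0.84) and Itgam (r = 0.81), while Itgam and Itgb7 varied oppositely (r = -0.63). Itga4 varied with Itgb1 (r = 0.78) and Itgb7 (r = 0.66). Among 2768 genes, those most like Itgam were Sephs2 (r = 0.99), Stx11 and Tsc22d4, and Sephs2 is also the gene next to Itgal on chromosome 7. Those most like Itgal were Hip1 (r = 0.97), Rap1gap2 and Fcho2, and those most like Itgax were Elmo1 (r = 0.96), Mapre1 and Bhlhe40. For Itgb2 they were Capza1 (r = 0.98), Dnm2 and Ptpn12, for Itga4 Tpp2 (r = 0.99), Smad4 and Gnb1, for Itgb1 Evl (r = 0.99), Lncpint and Ccny, and for Itgb7 Psmb2 (r = 0.99), Psme2 and Pdia3. Itga2 was closest to Klhl6 (r = 0.99), Klf12 and Tbx21. The 12 points share libraries, depth and the class rules, and these correlations on log2(CPM + 10) are descriptions.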

How the data were processed

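The authors deposited unfiltered matrices of UMI counts per gene and barcode with no normalization, made with Cell Ranger 4 per the file headers and with Cell Ranger 2.1.1 per the submitters' processing notes. The build that reads were aligned to is not given in the sources used here. GRCm38 positions come from GENCODE M21, to which 32158 (99.6%) of the gene IDs matched.

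A barcode was kept as a cell from 500 UMIs and 200 genes upward when no more than 10% of its UMIs were mitochondrial. The class rules were S100a8 and S100a9 at 5% of UMIs or more, Cd79a and Cd79b at 3 UMIs, Ncr1 and Klrb1c at 2, Cd209a, Clec10a and Flt3 at 3 and Csf1r at 2. UMIs were summed per class and library and scaled to CPM. Intervals are exact Poisson (levels), exact conditional binomial (ratios) and exact binomial (shares), at 95%, and a count of 0 allows up to 3 counts. Ratios were taken for genes with at least 50 UMIs in both libraries together. A marker counted as higher at 100 CPM and 2 times the other cells (10 CPM added to both). The cells-to-counts steps were tested on simulated data. Scrublet was run in scanpy 1.11.5 with Python 3.11.15.

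All 9 genes are named. From each list, genes past 1.5-fold at 50 CPM or more may be named. For each gene the 3 with the highest correlation are named. The 9 genes, the lists and the tests were chosen with earlier results of these data known. Counts and ratios were recomputed under 9 of 10 other choices, since removal of free RNA by haemoglobin gave no value, and under 2 more chosen after seeing the data, of which removal of free RNA by S100a8 and S100a9 covers B cells, NK cells and cDC.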

Additional observations from a re-analysis of the deposited data

Results flagged for a closer look

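Itgb7 differed between the libraries in opposite directions in B cells and neutrophils. Its log2 ratio of the high-B12 over the low-B12 library was 0.49 in B cells, from 1097 and 565 UMIs, and -0.59 in neutrophils, from 263 and 487 UMIs. The Itgb7 ratio was 0.331 (0.252 to 0.434) in granule-high and 0.869 (0.716 to 1.06) in granule-low neutrophils, where the interval includes 1. Summed B cell markers in granule-high cells were at 943 and 141 CPM. The part of B cell transcripts in the Itgb7 difference was not tested. With 1 library per group the difference between the 2 cell classes was not tested.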

How the results depend on the processing

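No paired analysis was possible because each group has 1 library and the labels give no shared replicate numbers. Over 46 pairs of class and gene, the main counts of 9 at least 1.5-fold lower and 0 higher in the high-B12 library became 4 lower with every cell weighted the same, 3 lower and 1 higher with scaling by the median ratio of genes, and 5 lower after subtracting the median of genes of like span (chosen after seeing the data). With barcodes of several rules left out 1 pair was at least 1.5-fold higher, Itgb7 in B cells, as with median scaling, and after thinning to 500 UMIs 2 were, Itga2 in neutrophils and Itgax in cDC. The lower count was between 7 and 11 with doublets out, doubled class minimums, a doubled UMI minimum, 5% mitochondrial UMIs or S100a8 and S100a9 left out of the total. Signs changed in 8 of 46 pairs after thinning and in 9 after the span step. Thinning turned the log2 ratio of Itga2 in neutrophils to 1.82 and of Itgb2 in the Sox5 set of B cells to 0.036, and within NK cells of the high-B12 library that of Itgax to 0.19 and of Itgb7 to -0.17 (Klrg1-only over Cd27-only). For Itga2 in granule-high over granule-low neutrophils, the low-B12 value became 1.66 without doublets and 0.011 with cells weighted the same, and the high-B12 value 0.044 with cells weighted the same and 0.085 after thinning. Itga2 in granule-high neutrophils came to 0.19 without barcodes of several rules. The cause was not tested. Removal of free RNA by haemoglobin could not be run, since 10 cells held over 50% of the haemoglobin UMIs of each class. By S100a8 and S100a9 (chosen after seeing the data) it changed 0 of 24 signs in B, NK and cDC.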
